A study of Mus musculus with 12 samples.

Results

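Mammary glands in which Stat3 had been deleted were compared with glands that kept the gene, in a mouse model of breast cancer, across all genes with at least 1 FPKM (a read count scaled by gene length and library size) in 4 or more of the 12 libraries of the series. That filter kept 13643 of the 54532 genes in the table, and the comparison used 8 of the 12 libraries, 4 labelled MIC Stat3 ko and 4 labelled MIC WT. The other 4, labelled MIC Chi3l1 ko, entered only the filter and the spread that the fit shares among groups. The mice were FVB/N females that drank doxycycline at 2 mg/ml, their hyperplastic glands were taken, and the sample titles give 2 weeks. In MIC mice doxycycline switches on both the polyoma virus middle T oncoprotein and Cre recombinase in mammary epithelial cells, so the WT glands carried the same transgenes, the same drug and the same oncogene as the Stat3 ko glands. Cre is driven in the epithelium and not in the other cells of the gland. The labels give neither the Stat3 allele, nor the age of the mice, nor how the 4 samples of a group were obtained. The p-values therefore measure only the spread between samples, which may be technical.

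STAT3 is a transcription factor that is phosphorylated by JAK kinases when cytokines of the interleukin-6 family, such as IL-6, LIF and oncostatin M, bind receptors that contain gp130. It then enters the nucleus and binds DNA as a dimer, and its best known targets include acute phase proteins and its own feedback inhibitors. In the mammary gland it is known as the factor that drives involution after weaning, when the milk-producing epithelium dies and is cleared, while the related STAT5 drives milk production.

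Each library held between 16217143 and 21197189 counts assigned to genes in the WT group and between 16817059 and 18473840 in the Stat3 ko group. Mitochondrially encoded genes took 1.002% to 1.51% of the counts in the WT libraries, but 4.79%, 3.37%, 1.88% and 1.15% in Stat3 ko 1 to Stat3 ko 4. The 10 most abundant genes took 12.1% of the counts in Stat3 ko 1 and 4.79% to 6.18% in the other 7 libraries. Stat3 ko 1 and Stat3 ko 2 therefore stood apart, and counts without both of them are given beside the gene lists. These and all other per-library values run in the order of library 1 to library 4. Differences are Stat3 ko minus WT on the log2(FPKM + 1) scale, which understates the change of genes at low levels. Standard errors and p-values of the limma fit use 1 spread per gene, pooled over all 12 libraries. A gene was called at an adjusted p under 0.05.

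Stat3 itself (chr11:100885098-100939540, minus strand, GRCm38) was at 49.6, 49.7, 46.2 and 46.4 FPKM in the WT glands and at 18.7, 17.8, 14.3 and 12.2 FPKM in the Stat3 ko glands. Every Stat3 ko library was below every WT library, and the remaining mean level was 32.9% of WT. The difference was -1.56 ± 0.12 (SE, n = 4 per group, limma adjusted p = 5.6e-05), and an exact two-sided permutation test of the FPKM gave p = 0.0286, the smallest that 4 against 4 samples allow. In bulk tissue, fewer cells of a type and less RNA per cell cannot be told apart, here and in every result that follows.

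Of the 13643 genes, 1911 were called (14.0%), 1145 of them lower (8.39%) and 766 higher (5.61%) in the Stat3 ko glands. The genes that fell were mostly well expressed: their median level went from 14.6 FPKM in WT to 8.15 FPKM in Stat3 ko, with a median difference of -0.70. The genes that rose started low, with a median of 2.75 FPKM in WT and 7.55 FPKM in Stat3 ko, and their median difference was 0.96. A gene under 1 FPKM in all libraries of a group could pass the filter only through other libraries, so part of such a difference is built in. This holds for the WT values of Axin2, Flt3 and Btnl2 and for the Stat3 ko values of Saa1 and Saa2, given below. The groups did not overlap at 1056 of the falls (92.2%) and 649 of the rises (84.7%), against 21.3% of all tested genes. Falls and rises were called on these same values. Their separation, here and for the called genes named below, is therefore a description and not further support. Differences beyond 2 were found in 48 falls and 53 rises. By edgeR on the recovered counts 54.3% of called genes were higher, by DESeq2 57.6%, in a limma fit of the 8 libraries alone 29.3% and among genes with a mean of at least 5 FPKM 29.9%, against 40.1% here.

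**Figure D1:**
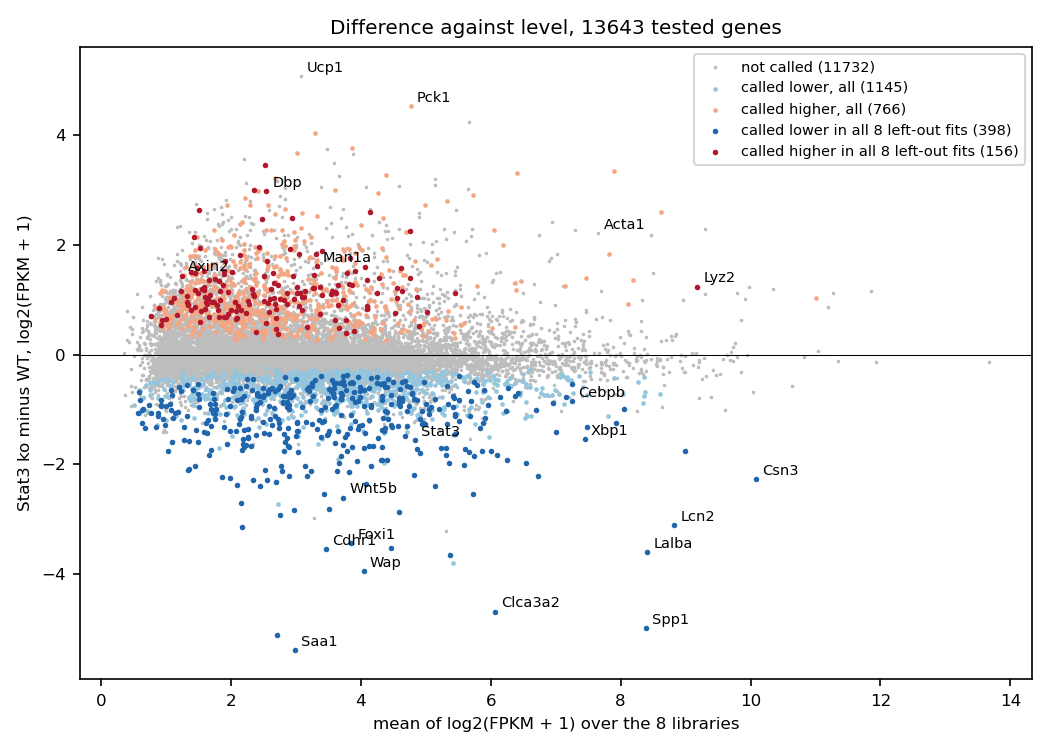
Each point is 1 of the 13643 tested genes, placed by its mean log2(FPKM + 1) over the 8 libraries (horizontal axis) and its Stat3 ko minus WT difference on the same scale (vertical axis). Light colours mark the 1911 called genes and dark colours the 398 falls and 156 rises that were also called with each of the 8 libraries left out in turn; the abundant genes with the deepest falls are Spp1, Lalba, Lcn2 and Csn3.

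The Stat3 ko libraries were less alike than the WT libraries: the median over genes of the SD of log2(FPKM + 1) was 0.14 in WT and 0.30 in Stat3 ko. The fit gave both groups the same pooled spread. Of the 766 rises, 359 were highest in Stat3 ko 2 and 325 in Stat3 ko 1, with 49 and 33 in Stat3 ko 4 and Stat3 ko 3. Most falls were lowest in the same pair of libraries, 557 and 487 in Stat3 ko 1 and Stat3 ko 2, against 71 and 30 in the other two. Leaving out 1 library at a time gave between 571 calls (without WT 1) and 3252 calls (without Stat3 ko 4), with 912 without WT 3, 766 without WT 4 and 1100 without Stat3 ko 2. Without Stat3 ko 1 and Stat3 ko 2 together 911 genes were called, among them 486 of the 1145 falls and 267 of the 766 rises. A core of 398 falls (2.92% of tested genes) and 156 rises (1.14%) was called in the full fit and with each of the 8 libraries left out in turn. Of this core, 362 falls and 121 rises were also called without Stat3 ko 1 and Stat3 ko 2 together. Genes of this core were not required to be called in the fit of the 8 libraries alone, which called 506 genes. Genes said from here on to have fallen or risen belong to this core unless the libraries on which their call depends are named. Counts of called list members are to be read against all tested genes, of which 8.39% were called lower and 5.61% higher (14.0% in all).

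**Figure D2:**
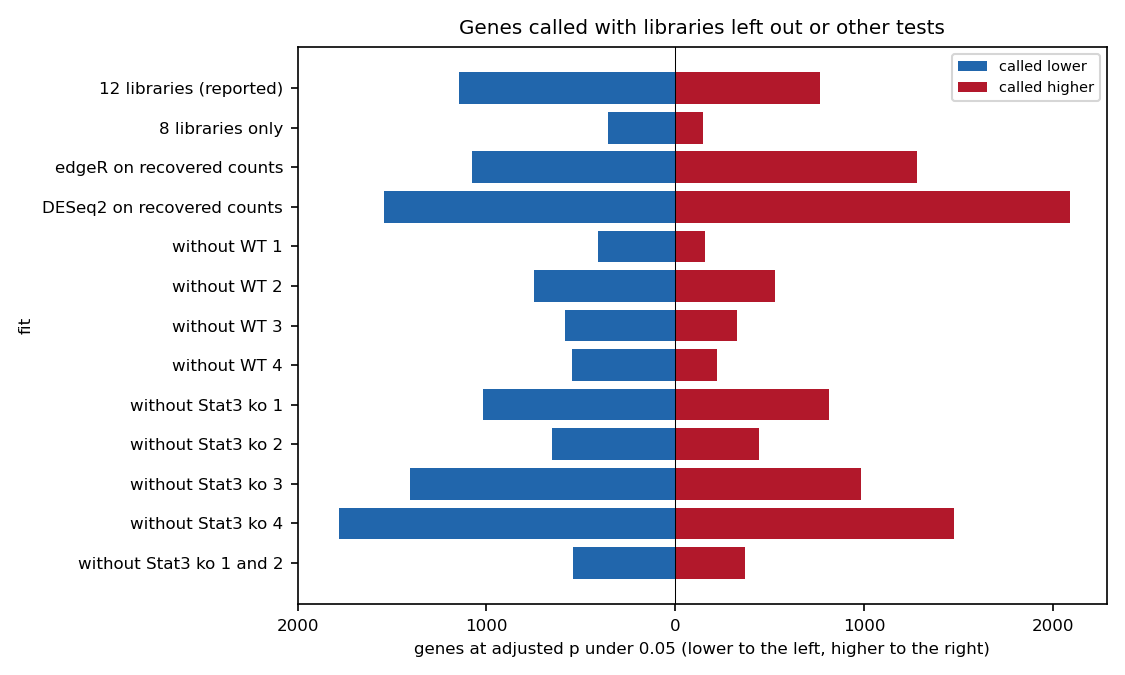
Bars give the number of genes at an adjusted p under 0.05, lower in Stat3 ko to the left of 0 and higher to the right, for the reported fit, for other tests and with libraries left out. Calls ran from 506 in the fit of 8 libraries alone to 3633 with DESeq2 on recovered counts.

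Upstream of STAT3, the receptors moved in both directions. Of 16 tested receptors and ligands, 4 were called higher and 2 lower, and 3 and 1 without Stat3 ko 1 and Stat3 ko 2. Osmr, the oncostatin M receptor, was at 10.1, 9.43, 9.59 and 9.71 FPKM in WT and at 4.8, 2.72, 2.67 and 2.95 FPKM in Stat3 ko, a fall of every Stat3 ko library below every WT library (difference -1.35 ± 0.15, adjusted p = 0.00032). Il6ra, which binds IL-6, rose from 4.02, 4.51, 4.11 and 3.85 FPKM to 7.41, 9.73, 6.74 and 5.21 FPKM (0.67 ± 0.14, adjusted p = 0.013). Il6st, which encodes the shared signalling chain gp130, rose from 11.5, 12.6, 12.1 and 11.5 FPKM to 31.7, 24.6, 19.9 and 15.2 FPKM (0.84 ± 0.18, adjusted p = 0.016). The groups did not overlap for either gene, though the call for Il6st was lost without WT 1 (adjusted p = 0.053) and without Stat3 ko 1 and Stat3 ko 2 together (adjusted p = 0.052). In the limma fit of the 8 libraries alone neither gene was called (adjusted p = 0.062 for Il6ra and 0.060 for Il6st). Lifr, the LIF receptor chain, was at 3.27, 4.07, 3.73 and 3.07 FPKM in WT and 11.1, 5.87, 4.41 and 4.76 FPKM in Stat3 ko and was not called (0.66 ± 0.21, adjusted p = 0.059).

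Among 10 JAK kinases and STAT factors only Stat3 was called, a share of 10% against 14.0% of all tested genes. Stat2, which acts in the interferon response, had a difference of -0.44 ± 0.31 (adjusted p = 0.34). Of 16 feedback inhibitors 2 were called, both lower (1 without Stat3 ko 1 and Stat3 ko 2). Their share of 12.5% was near the 14.0% of all tested genes. The clearer one was Ptpn2, a phosphatase that removes phosphate from JAKs and STATs. It fell from 23.05, 20.9, 22.0 and 21.5 FPKM to 7.29, 12.5, 13.7 and 11.1 FPKM (-0.95 ± 0.15, adjusted p = 0.0037). Socs1, a cytokine-induced inhibitor of JAK kinases, was at 3.25, 9.41, 3.17 and 6.25 FPKM in WT and 5.43, 14.3, 15.0 and 11.96 FPKM in Stat3 ko, groups that overlapped, and was not called (0.98 ± 0.39, adjusted p = 0.11). Socs3, also listed as a STAT3 target and named after its values were seen, was not called either (-0.14 ± 0.24, limma adjusted p = 0.71).

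Of 28 tested genes listed as STAT3 targets, a list that includes Stat3, 9 were called lower and 2 higher, with a median difference of -0.36 against -0.02 over all tested genes. Without Stat3 ko 1 and Stat3 ko 2, 9 were called lower and 0 higher (limma, with 18 members at an unadjusted p under 0.05 in the full fit, where edgeR called 12 and DESeq2 15). Fos, a subunit of the AP-1 transcription factor, fell from 42.3, 32.7, 42.7 and 34.6 FPKM to 10.4, 6.92, 8.32 and 11.7 FPKM (-1.93 ± 0.15, adjusted p = 6.6e-05). Cebpd, a transcription factor known from involution, fell from 15.8, 18.5, 19.99 and 18.01 FPKM to 7.41, 10.4, 5.77 and 8.6 FPKM (-1.10 ± 0.14, adjusted p = 0.0012). Its relative Cebpb fell from 189, 220, 213 and 192 FPKM to 98.8, 114, 95.2 and 149 FPKM (-0.85 ± 0.14, adjusted p = 0.0055). The groups did not overlap for any of these 3 genes. Muc1, a mucin of the apical surface of luminal cells, fell from between 24.1 and 26.2 FPKM in the WT libraries to 3.68, 6.28, 7.31 and 14.6 FPKM (-1.69 ± 0.27, adjusted p = 0.0045).

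The deepest falls of the comparison were in secreted acute phase genes. Saa1, a serum amyloid that is carried on lipoproteins during inflammation, was at 49.9, 62.1, 36.8 and 56.5 FPKM in WT and at 0, 0.38, 0.269 and 0.278 FPKM in Stat3 ko, which were 0, 17, 14 and 13 counts against 1732 to 3442 counts in the WT libraries. The neighbouring Saa2 went from 36.005, 47.2, 25.5 and 44.3 FPKM to 0.0238, 0.198, 0.132 and 0.0841 FPKM, or 1, 9, 7 and 4 counts. The differences were -5.39 ± 0.31 and -5.11 ± 0.29 (adjusted p = 5.6e-06 for both), and edgeR put them at -7.73 and -8.36 on its count scale. As Saa1 and Saa2 are near-identical copies, reads may be split between them by the authors' counting.

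The RefSeq sequence upstream of both genes (GRCm38.p6, bases 250 to 51 before the start) is shown because these loci had the largest falls. The Saa1 window is chr7:46743031-46743230 on the minus strand and the Saa2 window chr7:46751583-46751782 on the plus strand, and 188 of 201 aligned columns were identical (93.5%). The searched STAT motif, TTCNNNGAA, reads the same on both strands and had no match in either window.
Saa1: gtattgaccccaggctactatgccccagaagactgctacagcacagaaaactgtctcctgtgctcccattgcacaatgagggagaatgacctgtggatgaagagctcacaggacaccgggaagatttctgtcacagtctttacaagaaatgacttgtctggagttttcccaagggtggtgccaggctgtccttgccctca
Saa2: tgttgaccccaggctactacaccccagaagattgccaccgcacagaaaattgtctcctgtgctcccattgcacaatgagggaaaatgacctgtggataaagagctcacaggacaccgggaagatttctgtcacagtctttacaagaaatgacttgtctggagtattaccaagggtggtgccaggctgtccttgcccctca

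Across 27025 gene symbols in the RefSeq promoter table, TTCNNNGAA was found in 8.42% of 300-base windows, and the narrower TTCCNGGAA in 1.15%. Promoters were matched for 870 of the 1145 falls (76.0%) and 565 of the 766 rises (73.8%). The share of falls with a motif was not compared with that of other genes, since under 80% of the falls had a promoter. Of 398 core falls 315 had one, and 8 of these held TTCCNGGAA in the 250 bases before a start. Windows free of annotated exons were left for 5 of the 8, and the 3 with the largest falls are printed with the match in capitals, as examples chosen after their values were seen. They are Wnt5b (chr6:119467212-119467461, minus strand, match TTCCTGGAA from base -159), Moxd1 (chr10:24223267-24223516, plus strand, TTCCAGGAA from -150) and Pros1 (chr16:62854057-62854306, plus strand, TTCCAGGAA from -92). A match of letters does not show binding.
Wnt5b: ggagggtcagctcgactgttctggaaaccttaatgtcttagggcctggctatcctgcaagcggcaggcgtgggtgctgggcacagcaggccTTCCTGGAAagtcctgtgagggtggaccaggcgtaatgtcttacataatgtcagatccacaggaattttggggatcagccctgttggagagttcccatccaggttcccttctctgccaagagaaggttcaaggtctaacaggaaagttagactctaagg
Moxd1: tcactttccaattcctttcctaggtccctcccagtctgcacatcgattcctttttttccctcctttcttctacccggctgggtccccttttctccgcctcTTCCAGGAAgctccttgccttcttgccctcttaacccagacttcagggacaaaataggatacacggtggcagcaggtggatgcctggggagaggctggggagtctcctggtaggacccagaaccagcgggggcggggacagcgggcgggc
Pros1: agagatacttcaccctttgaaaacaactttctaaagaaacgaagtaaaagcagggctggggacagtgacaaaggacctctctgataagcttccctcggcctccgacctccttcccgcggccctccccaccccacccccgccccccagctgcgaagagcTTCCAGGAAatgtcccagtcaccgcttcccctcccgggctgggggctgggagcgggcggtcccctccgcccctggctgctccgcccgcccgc

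Pros1, which encodes the anticoagulant protein S, fell from 34.9, 29.8, 33.0 and 31.3 FPKM to 24.5, 12.3, 15.5 and 20.1 FPKM (-0.84 ± 0.17, adjusted p = 0.012). Moxd1, a monooxygenase-like protein of the endoplasmic reticulum, fell from between 3.34 and 4.17 FPKM in WT to between 0.502 and 2.06 FPKM (-1.06 ± 0.20, adjusted p = 0.0097). The values of Wnt5b are given with the other Wnt genes.

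Of 22 tested acute phase and antimicrobial secreted genes, 7 were called lower and 2 higher, and the same counts were found without Stat3 ko 1 and Stat3 ko 2. Lcn2, an iron-siderophore-binding protein of epithelium and neutrophils, fell from 1410, 1417, 1244 and 1285 FPKM to 77.2, 147, 173 and 282 FPKM (-3.12 ± 0.31, adjusted p = 0.00019). Lrg1, a secreted leucine-rich glycoprotein, fell from 219, 186, 247 and 184 FPKM to 103, 65.1, 70.2 and 77.4 FPKM (-1.41 ± 0.15, adjusted p = 0.00026). Cp, the copper-carrying ferroxidase ceruloplasmin, fell from between 94.6 and 168 FPKM in WT to between 29.0 and 46.9 FPKM in Stat3 ko (-1.83 ± 0.18, adjusted p = 0.00018). The groups were far apart for each of the 3 genes. In the full fit 10 of the 22 members had a positive difference. Slpi, named after its values were seen, rose (1.21 ± 0.26, limma adjusted p = 0.015). Orm1, the acute phase orosomucoid, was highest in Stat3 ko 1. It was at 2.6, 5.60, 3.74 and 7.01 FPKM in WT and 165, 16.7, 24.1 and 11.3 FPKM in Stat3 ko and was not called (2.49 ± 0.83, adjusted p = 0.065). Adipocytes are a known source of orosomucoid, and adipocyte markers were also highest in Stat3 ko 1, as given with the other cell types; their part in the value of Orm1 was not tested.

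As a group, milk protein genes were lower in every Stat3 ko library. Of 18 tested genes 10 were called lower and 1 higher, with a median difference of -1.82, and 8 were called lower without Stat3 ko 1 and Stat3 ko 2. Their summed share of all counts was 2.07%, 3.22%, 2.47% and 1.78% in the WT libraries and 0.559%, 0.641%, 0.647% and 0.783% in the Stat3 ko libraries. Spp1, the milk and matrix phosphoprotein osteopontin, was at 1386, 3395, 3018 and 895 FPKM in WT and 38.2, 53.9, 47.9 and 116 FPKM in Stat3 ko (-4.99 ± 0.44, adjusted p = 9.1e-05). Lalba, the cofactor of lactose synthase, was at 1136, 998, 1325 and 1296 FPKM and fell to 79.1, 134, 80.7 and 101 FPKM (-3.60 ± 0.20, adjusted p = 5.6e-06). Wap, the whey acidic protein, fell from 67.3, 107, 62.1 and 36.5 FPKM to 1.67, 4.94, 3.54 and 3.31 FPKM (-3.95 ± 0.33, adjusted p = 6.6e-05). All 4 Stat3 ko libraries, including the 2 with high mitochondrial shares, lay far below every WT library for these 3 genes.

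The casein that stabilises the milk micelle, Csn3, fell from 2346, 2652, 2272 and 2275 FPKM to 182, 523, 634 and 972 FPKM (-2.27 ± 0.39, adjusted p = 0.0061), and without Stat3 ko 1 and Stat3 ko 2 the difference was -1.60. Csn2, a major casein of lactation, varied widely among the WT libraries, at 85.9, 499, 144 and 33.6 FPKM, against 3.63, 15.0, 28.4 and 12.6 FPKM in Stat3 ko, and was not called (-3.21 ± 1.11, adjusted p = 0.072). Lao1, a milk L-amino acid oxidase, fell from between 31.0 and 144 FPKM in WT to between 4.05 and 6.91 FPKM in Stat3 ko (-3.52 ± 0.42, adjusted p = 0.00061). Cel, the bile salt-activated lipase of milk, fell from between 8.64 and 14.1 FPKM to between 0.21 and 1.63 FPKM (-2.70 ± 0.28, adjusted p = 0.00024).

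Of 26 tested transporters that move milk nutrients and ions across the epithelium, 13 were called lower and 2 higher, with a median difference of -0.63. In all 8 fits with a library left out 9 of the 13 were called, and 11 transporters were called lower and 0 higher by limma without Stat3 ko 1 and Stat3 ko 2 (in the full fit 19 were at an unadjusted p under 0.05, and edgeR called 16 and DESeq2 17). Slc1a5, a glutamine transporter, was one of the 2 called higher, at 5.18, 9.97, 7.21 and 8.74 FPKM in WT and 282, 30.7, 30.4 and 18.3 FPKM in Stat3 ko (2.49 ± 0.74, adjusted p = 0.047), but lost its call without WT 1 (adjusted p = 0.13), WT 2 (0.074), WT 3 (0.094), WT 4 (0.097) or Stat3 ko 2 (0.072). Slc2a9, a urate transporter of the glucose transporter family, went from 13.7, 12.5, 11.6 and 11.3 FPKM to 2.76, 2.79, 3.58 and 3.46 FPKM (-1.68 ± 0.11, adjusted p = 2.6e-05). Slc3a2, the heavy chain shared by several amino acid exchangers, fell from 61.7, 67.6, 58.4 and 53.0 FPKM to 38.4, 30.8, 29.4 and 34.5 FPKM (-0.84 ± 0.10, adjusted p = 0.00065). Its light chain partner Slc7a5, named after its values were seen, fell from between 69.9 and 91.2 FPKM in WT to 7.52, 16.8, 35.8 and 31.5 FPKM (-1.99 ± 0.38, adjusted p = 0.0089). No Stat3 ko value of Slc2a9, Slc3a2 or Slc7a5 reached a WT value. The sodium-phosphate cotransporter Slc34a2 fell from 26.9, 34.1, 20.8 and 13.3 FPKM to 3.89, 5.70, 7.59 and 9.95 FPKM (-1.66 ± 0.30, adjusted p = 0.007). Clca3a2, a calcium-activated chloride channel regulator known from the involuting gland, fell from 371, 298, 347 and 344 FPKM to 31.9, 3.54, 11.2 and 15.7 FPKM (-4.69 ± 0.45, adjusted p = 0.00016).

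A pair of calcium genes that were on no list, and were chosen after their values were seen, fell in the same libraries. Orai1, the pore of the store-operated calcium channel, went from 51.1, 54.4, 47.3 and 40.3 FPKM to 13.4, 21.6, 19.3 and 25.02 FPKM (-1.27 ± 0.16, adjusted p = 0.0012). Atp2c2, a secretory pathway calcium pump known to partner with ORAI1 in mammary cells, fell from 33.7, 29.999, 26.4 and 24.98 FPKM to 3.82, 4.36, 6.58 and 9.07 FPKM (-2.15 ± 0.22, adjusted p = 0.00025). All Stat3 ko libraries lay below all WT libraries for both genes.

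Genes of the endoplasmic reticulum, where secreted proteins fold, gave the highest share of falls of any list drawn in the plot of gene lists: 19 of 29 tested members were called lower and 0 higher by limma, with 23 at an unadjusted p under 0.05 and 18 and 19 called by edgeR and DESeq2. The median difference was -0.68. The mean log2(FPKM + 1) of the 29 genes was 5.78 to 5.99 in the WT libraries and 5.06, 5.12, 5.46 and 5.52 in the Stat3 ko libraries, so Stat3 ko 1 and Stat3 ko 2 were lowest but all 4 were below WT. Without those 2 libraries 10 members were called lower. Xbp1, the transcription factor of the unfolded protein response that supports secretory cells, fell from 310, 267, 328 and 286 FPKM to 90.2, 87.9, 94.4 and 139 FPKM (-1.55 ± 0.15, adjusted p = 0.00018). Trib3, a pseudokinase induced by the same stress response, fell from 24.1, 22.5, 20.6 and 20.7 FPKM to 5.39, 6.75, 8.54 and 9.42 FPKM (-1.45 ± 0.15, adjusted p = 0.00024). The groups did not overlap for either gene.

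Hspa5, the main chaperone of this compartment and named after its values were seen, fell from 393, 389, 318 and 408 FPKM to 145, 137, 261 and 240 FPKM (-0.99 ± 0.21, adjusted p = 0.014), and without Stat3 ko 1 and Stat3 ko 2 by less (-0.58, adjusted p = 0.035). The disulfide isomerase Pdia6 (-1.01 ± 0.17), the stress-induced secreted factor Manf (-0.96 ± 0.19) and the translocon subunit Sec61b (-0.92 ± 0.13) fell as well. Calr, the calcium-binding chaperone calreticulin, was called (-0.72 ± 0.21, adjusted p = 0.042) but depended on the libraries: its adjusted p was 0.11 without WT 1, 0.089 without WT 2, 0.064 without WT 3, 0.099 without WT 4, 0.079 without Stat3 ko 1 and 0.10 without Stat3 ko 2.

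**Figure D3:**
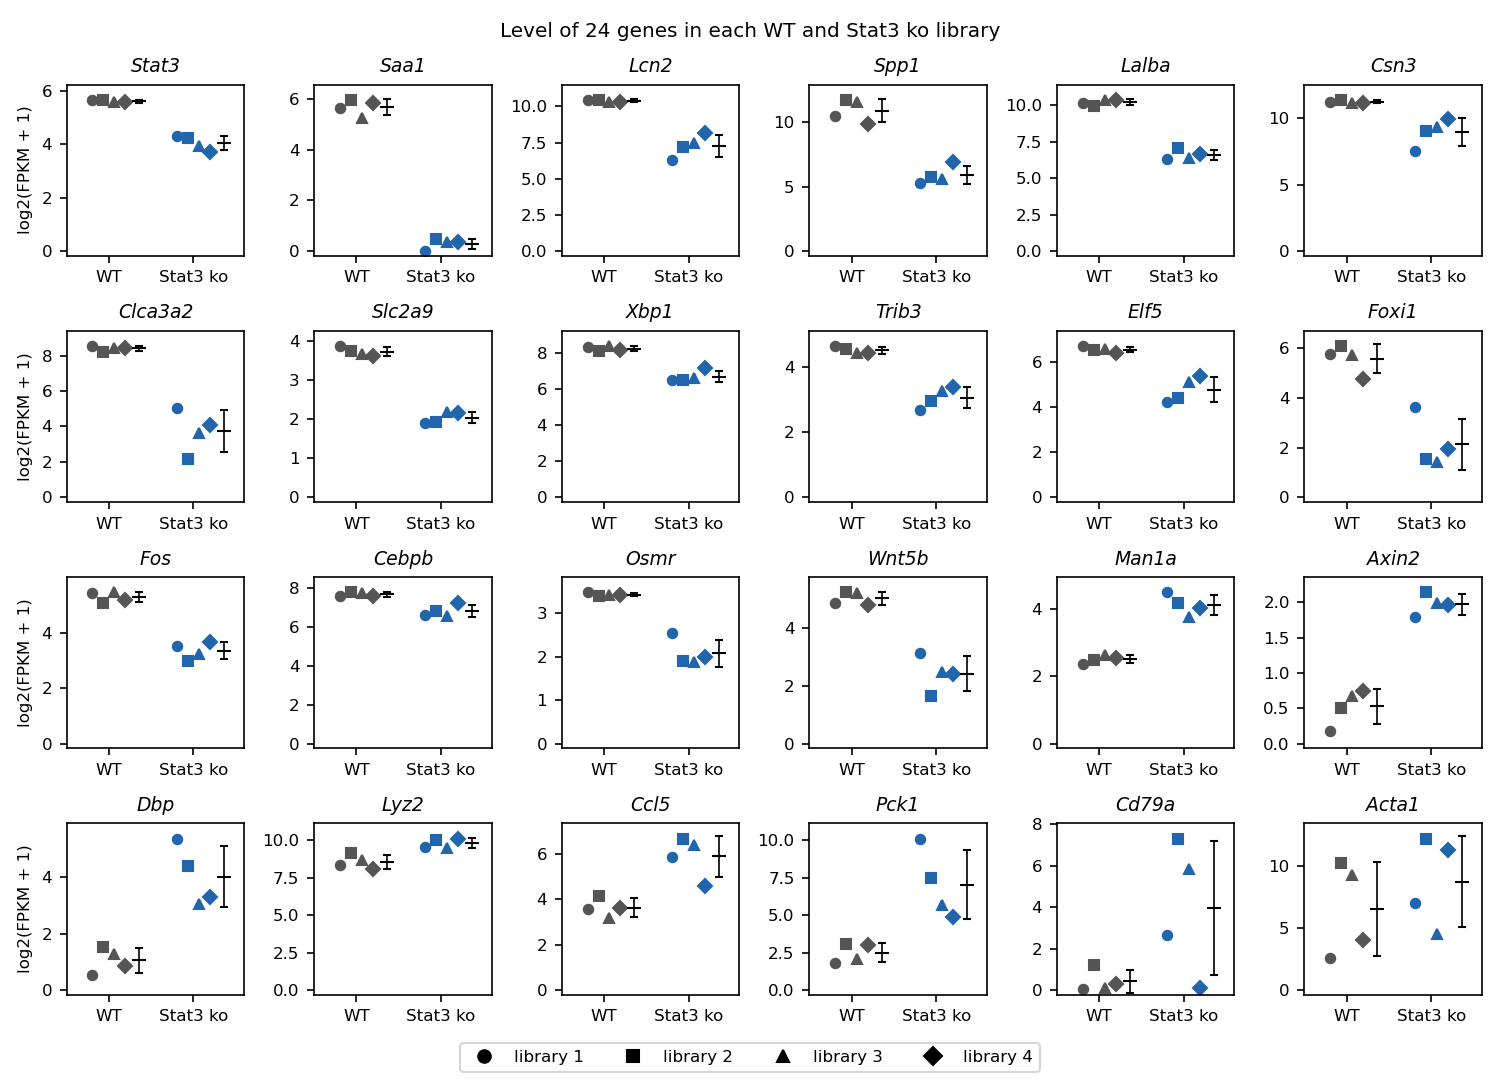
Each panel shows 1 of 24 genes, with its log2(FPKM + 1) in each WT library (grey) and Stat3 ko library (blue); symbols stand for library 1 to library 4, and the bar is the mean with the SD (n = 4). Secretory genes such as Lalba and Slc2a9 separate the groups with little spread, whereas Pck1, Cd79a and Acta1 differ most among the Stat3 ko libraries themselves.

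Transcription factors changed at about the rate of all genes: 58 of 820 tested factors were called higher and 65 lower (15.0%). Elf5, the factor that specifies the milk-producing alveolar lineage, fell from 103, 91.3, 93.2 and 83.3 FPKM to 17.6, 20.2, 33.6 and 40.1 FPKM (-1.77 ± 0.23, adjusted p = 0.0012), and the fall without Stat3 ko 1 and Stat3 ko 2 was -1.31. Foxi1, a forkhead factor known from ion-transporting epithelial cells, fell from 52.9, 66.3, 51.4 and 25.5 FPKM to 11.4, 1.93, 1.68 and 2.85 FPKM (-3.43 ± 0.48, adjusted p = 0.0019). Fosl2, an AP-1 subunit, fell from 17.997, 17.6, 20.5 and 14.6 FPKM to 5.16, 4.59, 5.67 and 7.65 FPKM (-1.47 ± 0.16, adjusted p = 0.00032). The Stat3 ko libraries lay below the WT libraries for all 3 factors. Egr2, an immediate-early zinc finger factor, moved the other way, from 1.86, 1.49, 1.57 and 1.71 FPKM to 3.76, 4.33, 2.90 and 3.61 FPKM (0.80 ± 0.12, adjusted p = 0.0031). In the whole list of 22 immediate-early genes 3 were called lower and 2 higher, and 3 and 1 without Stat3 ko 1 and Stat3 ko 2.

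Of 23 alveolar and luminal differentiation factors, 6 were called lower and 2 higher, and 3 were called in each direction without Stat3 ko 1 and Stat3 ko 2. Factors of hormone-sensing luminal cells were high in some Stat3 ko libraries only. Foxa1, a pioneer factor for oestrogen receptor binding, was at 0.118, 0.578, 0.443 and 1.56 FPKM in WT and 21.7, 0.549, 5.61 and 5.04 FPKM in Stat3 ko, and Cited1, a transcriptional co-regulator of the same cells, at 0.128, 0.663, 0.21 and 1.07 FPKM and 18.6, 0.379, 7.66 and 1.69 FPKM. Stat3 ko 2 lay within the WT range for both, and neither was called (Foxa1 1.94 ± 0.62, adjusted p = 0.057; Cited1 1.77 ± 0.65, adjusted p = 0.087). With Stat3 ko 3 and Stat3 ko 4 as the only Stat3 ko libraries, Foxa1 was higher by 1.98 (adjusted p = 0.004) and Cited1 by 1.71 (adjusted p = 0.046).

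The list means of luminal markers and of milk genes ran in a different order among the Stat3 ko libraries. The mean log2(FPKM + 1) of 22 luminal keratin and adhesion genes was 5.94, 5.69, 5.82 and 6.09 in WT and 4.49, 4.69, 5.61 and 5.86 in Stat3 ko, so that Stat3 ko 4 lay inside the WT range, Stat3 ko 3 just under it, and Stat3 ko 1 and Stat3 ko 2 more than 1 below it. Milk proteins were at 4.5, 5.08, 4.90 and 4.46 in the 4 Stat3 ko libraries against 5.65 to 7.06 in WT, and transporters at 3.38, 2.97, 3.37 and 3.47 against 3.99 to 4.05. The milk mean includes Cidea, Cd36 and Glycam1, and their part in its order of libraries was not tested. Csn3 and Spp1 were lowest in Stat3 ko 1 and highest in Stat3 ko 4, as the luminal list mean was. The milk genes' summed share of counts was too, at 0.559% in Stat3 ko 1 and 0.783% in Stat3 ko 4. Lalba and Wap were lowest in Stat3 ko 1 but highest in Stat3 ko 2. The part of epithelial cell number in the falls of milk genes was not tested. Of the luminal genes 6 were called lower and 1 higher, and without Stat3 ko 1 and Stat3 ko 2 the counts were 3 and 2. Krt23, a keratin of simple epithelium that lies within 5 Mb of Stat3, rose from 1.32, 0.286, 2.05 and 2.40 FPKM to 4.22, 4.07, 14.2 and 10.9 FPKM (1.81 ± 0.39, adjusted p = 0.015). Muc4, a membrane mucin, fell from between 3.27 and 4.57 FPKM in WT to between 0.24 and 1.42 FPKM (-1.42 ± 0.22, adjusted p = 0.0034). Of 11 basal and myoepithelial markers limma called 0, with 4 at an unadjusted p under 0.05, and edgeR called 3 and DESeq2 4.

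**Figure D4:**
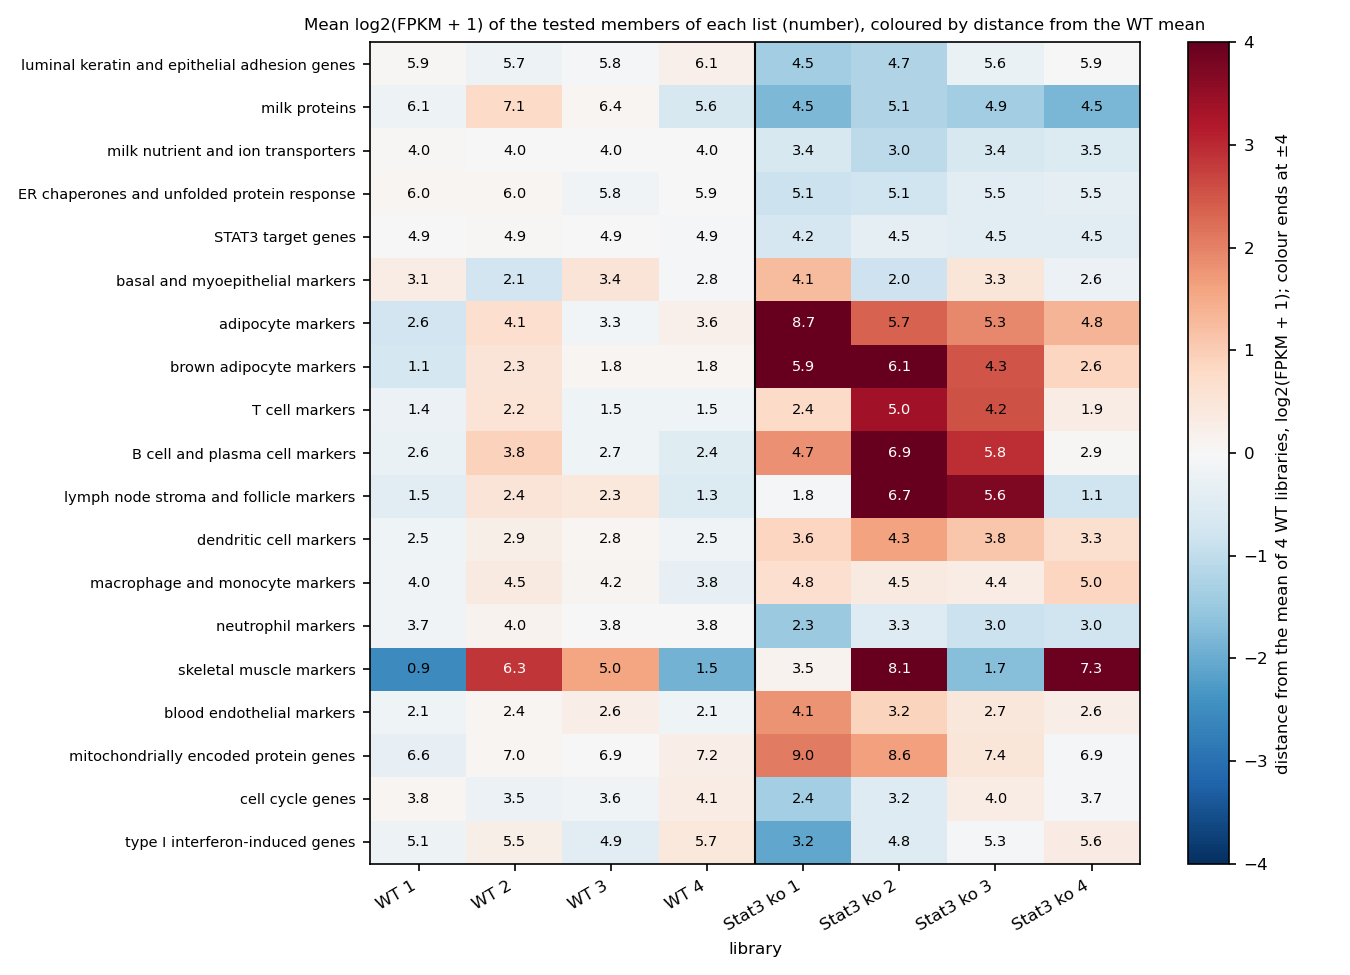
Rows are gene lists and columns the 8 libraries; each number is the mean log2(FPKM + 1) of the tested members, and the colour is its distance from the mean of the 4 WT libraries (blue lower, red higher, ending at 4 units). Milk, transporter and ER rows are low in all 4 Stat3 ko columns, while the luminal row is low mainly in Stat3 ko 1 and Stat3 ko 2 and the fat, lymphocyte and muscle rows differ between Stat3 ko columns.

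Involution is the process in which STAT3 is best known in this tissue. Among 28 genes of mammary involution and lysosomes 7 were called lower and 2 higher, and without Stat3 ko 1 and Stat3 ko 2 the counts were 6 and 1. The median difference was -0.21, with 12 members positive and 16 negative, and no listed cathepsin was called. Igfbp5, which binds insulin-like growth factors and is known to accumulate during involution, fell from 797, 1245, 1033 and 759 FPKM to 239, 232, 185 and 559 FPKM (-1.77 ± 0.31, adjusted p = 0.0064). Tgfb3, a growth factor induced by milk stasis, fell from 80.1, 85.2, 100.3 and 97.3 FPKM to 30.003, 28.3, 40.6 and 56.6 FPKM (-1.25 ± 0.20, adjusted p = 0.0039). Pik3r1, the regulatory subunit of phosphatidylinositol 3-kinase, fell from between 52.9 and 69.7 FPKM in WT to between 18.7 and 37.9 FPKM (-1.26 ± 0.18, adjusted p = 0.0025). The groups did not overlap for any of these 3 genes.

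Of 21 Wnt and Notch genes 4 were called lower and 2 higher, and 2 and 1 without Stat3 ko 1 and Stat3 ko 2. Wnt5b, a ligand of the non-canonical Wnt branch, fell from 28.4, 36.9, 36.2 and 27.0 FPKM to 7.82, 2.17, 4.59 and 4.37 FPKM (-2.61 ± 0.27, adjusted p = 0.00024). Hey1, a transcriptional target of Notch, fell from 17.3, 19.8, 20.2 and 13.2 FPKM to 8.30, 3.92, 4.79 and 8.19 FPKM (-1.39 ± 0.26, adjusted p = 0.0092). Axin2, a negative regulator that is itself induced by canonical Wnt signalling, rose from 0.132, 0.422, 0.603 and 0.674 FPKM to 2.46, 3.41, 2.96 and 2.87 FPKM (1.44 ± 0.20, adjusted p = 0.0018). Each of these genes separated the groups, and the Axin2 difference was 1.44 without Stat3 ko 1 and Stat3 ko 2 as well. All WT values of Axin2 were under the 1 FPKM of the filter, which it passed through other libraries only.

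Metabolic genes were split. Among 21 fatty acid synthesis genes 3 were called higher and 4 lower, and 1 and 2 without Stat3 ko 1 and Stat3 ko 2. The median difference was 0.87, and 16 of the 21 were positive. In the full fit 13 were at an unadjusted p under 0.05, and edgeR called 10 and DESeq2 17. Their summed share of counts was 7.10%, 1.33%, 1.45% and 0.738% in Stat3 ko against 0.597% to 0.686% in WT. Gpam, Thrsp and Elovl5 were called higher, in 2, 2 and 4 of the 8 left-out fits. The desaturases of polyunsaturated fatty acids fell: Fads2 went from 80.1, 75.4, 70.9 and 70.1 FPKM to 28.6, 11.7, 30.7 and 15.3 FPKM (-1.84 ± 0.25, adjusted p = 0.0018) and Fads1 from 69.1, 77.6, 71.1 and 66.4 FPKM to 51.6, 11.1, 23.9 and 13.8 FPKM (-1.71 ± 0.36, adjusted p = 0.014). Of 26 glycolysis and hypoxia genes 7 were called lower and 2 higher, and 4 and 1 without Stat3 ko 1 and Stat3 ko 2. Ndrg1, a stress and hypoxia-induced gene, fell from 39.0, 46.2, 43.0 and 33.8 FPKM to 14.2, 9.23, 7.63 and 9.17 FPKM (-1.93 ± 0.16, adjusted p = 6.9e-05), and Pfkl, a phosphofructokinase subunit, from between 56.2 and 69.2 FPKM in WT to between 37.1 and 40.9 FPKM (-0.66 ± 0.08, adjusted p = 0.00064). Aldoc, an aldolase, fell from 112, 149, 118 and 96.2 FPKM to 19.4, 25.8, 42.7 and 61.8 FPKM (-1.76 ± 0.30, adjusted p = 0.0056). Nqo1, a quinone reductase and NRF2 target, fell from 25.8, 26.0, 28.5 and 21.1 FPKM to 4.56, 2.21, 2.39 and 5.62 FPKM (-2.55 ± 0.21, adjusted p = 6.6e-05), in a list of 19 antioxidant genes of which 4 were called lower and 4 higher, and 2 and 1 without Stat3 ko 1 and Stat3 ko 2.

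Several of the largest falls were in genes on none of the lists. Cdhr1, a cadherin-related protein best known from photoreceptors, fell from 44.8, 34.4, 43.1 and 27.2 FPKM to 3.05, 1.41, 2.11 and 2.52 FPKM (-3.55 ± 0.19, adjusted p = 5.6e-06). Tmprss4, a membrane serine protease, fell from 39.6, 32.0, 37.6 and 41.0 FPKM to 3.29, 6.52, 9.35 and 8.18 FPKM (-2.37 ± 0.24, adjusted p = 0.00022). Col9a1, a cartilage-type collagen chain, fell from between 64.8 and 111 FPKM in WT to between 5.01 and 26.0 FPKM (-2.40 ± 0.41, adjusted p = 0.0055), and the fibrillar collagen Col11a1 from between 5.38 and 14.1 FPKM to between 0.692 and 3.25 FPKM (-2.29 ± 0.32, adjusted p = 0.002). The groups were separate for each of these genes.

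Rises that were stable to leaving out any library came from several kinds of gene. Man1a, a Golgi mannosidase that trims N-glycans, rose from 4.13, 4.66, 5.27 and 4.80 FPKM to 21.7, 17.2, 12.7 and 15.5 FPKM (1.62 ± 0.15, adjusted p = 0.00014), and the sialyltransferase St3gal4 from 6.82, 7.08, 5.44 and 5.76 FPKM to 17.9, 12.6, 12.1 and 15.2 FPKM (1.08 ± 0.13, adjusted p = 0.0008). Hpse, the enzyme that cleaves heparan sulfate, rose from 2.51, 4.01, 3.42 and 2.45 FPKM to 8.72, 10.8, 8.26 and 8.34 FPKM (1.30 ± 0.14, adjusted p = 0.00028). Rin3, an exchange factor of endosomal Rab proteins, rose from between 2.05 and 2.64 FPKM in WT to between 5.27 and 8.96 FPKM (1.20 ± 0.13, adjusted p = 0.00031). In these 4 genes the values of Stat3 ko 3 and Stat3 ko 4 were also above all WT values. Btnl2, a butyrophilin-like immune regulator, rose from between 0.404 and 0.865 FPKM to 2.97, 4.005, 4.05 and 4.20 FPKM (1.57 ± 0.18, adjusted p = 0.00053). No WT library helped Btnl2 pass the filter of 1 FPKM.

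Circadian clock genes were called in both directions, 4 of 18 higher and 4 lower, and 3 were called higher and 1 lower without Stat3 ko 1 and Stat3 ko 2. Dbp, a rhythmic transcription factor, was at 0.449, 1.88, 1.44 and 0.821 FPKM in WT and 40.7, 20.1, 7.32 and 8.81 FPKM in Stat3 ko (2.98 ± 0.49, adjusted p = 0.0049). Its relative Tef rose from 1.93, 4.17, 3.21 and 2.48 FPKM to 30.4, 16.8, 6.81 and 9.51 FPKM (1.92 ± 0.39, adjusted p = 0.012). Npas2, a partner of BMAL1, fell from 3.27, 2.59, 3.03 and 2.02 FPKM to 0.401, 0.508, 1.07 and 0.95 FPKM (-1.11 ± 0.15, adjusted p = 0.0018). Hlf, of the same PAR bZIP family as Dbp and Tef, was called in the other direction, at 16.99, 14.5, 13.4 and 14.5 FPKM in WT and 10.1, 6.99, 9.08 and 11.3 FPKM in Stat3 ko (-0.62 ± 0.14, adjusted p = 0.02); its call was lost without WT 1 (adjusted p = 0.069), without WT 4 (0.051) and without both Stat3 ko 1 and Stat3 ko 2 (0.073). WT and Stat3 ko libraries were separate for the 4 genes. The labels do not give the hour of collection, so time of day and genotype cannot be told apart.

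Myeloid genes moved in opposite directions. Cd14, a lipopolysaccharide co-receptor of monocytes and mammary epithelium, fell from 168, 196, 168 and 203 FPKM to 44.7, 34.4, 41.7 and 68.7 FPKM (-1.97 ± 0.18, adjusted p = 0.00014), whereas Lyz2, the lysozyme of macrophages, rose from 319, 567, 410 and 269 FPKM to 746, 1050, 717 and 1107 FPKM (1.24 ± 0.23, adjusted p = 0.0075). Of 21 macrophage and monocyte markers 7 were called higher and Cd14 alone lower, but 1 was called higher and 1 lower without Stat3 ko 1 and Stat3 ko 2, and 1 of the 7 rises was called in all 8 fits with a library left out. Of 21 listed neutrophil markers 10 passed the filter, and of these 5 were called lower and 1 higher. Without Stat3 ko 1 and Stat3 ko 2, 5 were called lower and 0 higher. The falls include Lcn2, which is also made by epithelium. The marker called higher was Mmp9 (0.86 ± 0.21, limma adjusted p = 0.025), called in 6 of the 8 fits with a library left out. S100a8, one chain of the calprotectin dimer, went from 30.1, 32.0, 29.7 and 25.4 FPKM to 1.30, 11.1, 3.09 and 1.98 FPKM (-2.81 ± 0.40, adjusted p = 0.0021), but its partner S100a9 was at 0.536, 1.97, 0.807 and 0.501 FPKM in WT, near the floor, and 0.46, 20.1, 2.65 and 0.507 FPKM in Stat3 ko (0.94 ± 0.70, adjusted p = 0.36). Padi4, the enzyme that citrullinates histones in neutrophil extracellular traps, fell from 4.38, 3.53, 3.82 and 4.54 FPKM to 0.31, 1.08, 2.06 and 1.98 FPKM (-1.18 ± 0.23, adjusted p = 0.0099), and the neutrophil surface protein Cd177 from between 5.53 and 9.49 FPKM to between 0.486 and 2.57 FPKM (-1.54 ± 0.26, adjusted p = 0.0057).

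Of 13 tested dendritic cell markers 8 were called higher and 0 lower by limma (11 of the 13 were at an unadjusted p under 0.05, and edgeR called 9 and DESeq2 11). Without Stat3 ko 1 and Stat3 ko 2, 4 were called higher. Flt3, the receptor that drives dendritic cell development, rose from 0.254, 0.623, 0.426 and 0.262 FPKM to 1.19, 2.31, 1.52 and 1.11 FPKM (0.85 ± 0.17, adjusted p = 0.011). No WT library helped Flt3 pass the filter of 1 FPKM. Siglech, a marker of plasmacytoid dendritic cells, rose from between 0.726 and 1.78 FPKM in WT to 5.27, 6.35, 3.77 and 1.96 FPKM (1.36 ± 0.26, adjusted p = 0.0096), and Fscn1, an actin bundler of mature dendritic cells, from between 12.5 and 19.7 FPKM to 38.1, 65.9, 56.3 and 23.95 FPKM (1.40 ± 0.27, adjusted p = 0.01). Stat3 ko 4 was the lowest of the Stat3 ko libraries for all 3 markers but still above WT. Complement genes were called higher in 5 of 17 and lower in 0, with 9 at an unadjusted p under 0.05, 6 called by edgeR and 8 by DESeq2, and 2 were called higher without Stat3 ko 1 and Stat3 ko 2. Cfp, the complement activator properdin, rose from 12.9, 21.4, 17.2 and 12.7 FPKM to 35.5, 41.4, 29.1 and 39.3 FPKM (1.15 ± 0.17, adjusted p = 0.0027).

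MHC class II genes were called higher in 7 of 11, and in 7 again without Stat3 ko 1 and Stat3 ko 2. H2-Aa, a class II chain, was at 40.9, 92.7, 43.3 and 43.1 FPKM in WT and 78.9, 158, 128 and 173 FPKM in Stat3 ko, with WT 2 above Stat3 ko 1 (1.30 ± 0.34, adjusted p = 0.03). Its call was lost without WT 1 (adjusted p = 0.093), WT 3 (0.075), WT 4 (0.084) or Stat3 ko 2 (0.075). Ccl5, a chemokine that attracts T cells, rose from 10.8, 16.9, 8.01 and 11.2 FPKM to 57.3, 101, 83.4 and 23.2 FPKM (2.26 ± 0.41, adjusted p = 0.0077). T cell markers had a median difference of 1.69, with 4 of 18 called higher by limma, although 18 were at an unadjusted p under 0.05 and edgeR and DESeq2 each called 18; limma called 0 without Stat3 ko 1 and Stat3 ko 2. Of 11 NK and cytotoxic lymphocyte markers 7 were called higher with a median of 0.98, and 2 without Stat3 ko 1 and Stat3 ko 2. The mean log2(FPKM + 1) of the T cell markers was 1.41, 2.20, 1.47 and 1.48 in WT and 2.40, 4.998, 4.19 and 1.93 in Stat3 ko, so Stat3 ko 4 was below WT 2. Lymph node stroma and follicle markers were high in Stat3 ko 2 and Stat3 ko 3 as well, at 1.79, 6.68, 5.58 and 1.06 against 1.33 to 2.38 in WT, and so were B cell and plasma cell markers, at 4.70, 6.90, 5.83 and 2.92 against 2.38 to 3.80. Cd79a, a chain of the B cell receptor, was at 5.35, 159, 56.4 and 0.0727 FPKM in Stat3 ko and at most 1.35 FPKM in WT and was not called (3.57 ± 1.20, adjusted p = 0.068). The part of lymph node tissue in the rises of T cell, dendritic cell and class II genes was not tested.

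Fat markers followed a different order of libraries. The mean log2(FPKM + 1) of 17 adipocyte markers was 2.61, 4.07, 3.28 and 3.57 in WT and 8.65, 5.75, 5.31 and 4.75 in Stat3 ko, so all Stat3 ko libraries were above WT and Stat3 ko 1 stood far above the rest. Of these markers 7 were called higher, but without Stat3 ko 1 and Stat3 ko 2 limma called 0. Pck1, a glyceroneogenic enzyme of adipocytes, was at 2.53, 7.44, 3.27 and 7.15 FPKM in WT and 1103, 174, 51.0 and 28.1 FPKM in Stat3 ko (4.53 ± 1.11, adjusted p = 0.025). The call for Pck1 was lost without WT 1 (adjusted p = 0.079), WT 3 (0.062), WT 4 (0.057) or Stat3 ko 2 (0.058). Brown adipocyte markers were at 1.05 to 2.27 in WT and 5.87, 6.10, 4.25 and 2.62 in Stat3 ko; limma called 0 of 8, with 7 at an unadjusted p under 0.05, and edgeR called 1 and DESeq2 7. Fat and high mitochondrial shares were thus found in the same libraries in which luminal markers were lowest, and their part in the falls of epithelial genes was not tested.

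**Figure D5:**
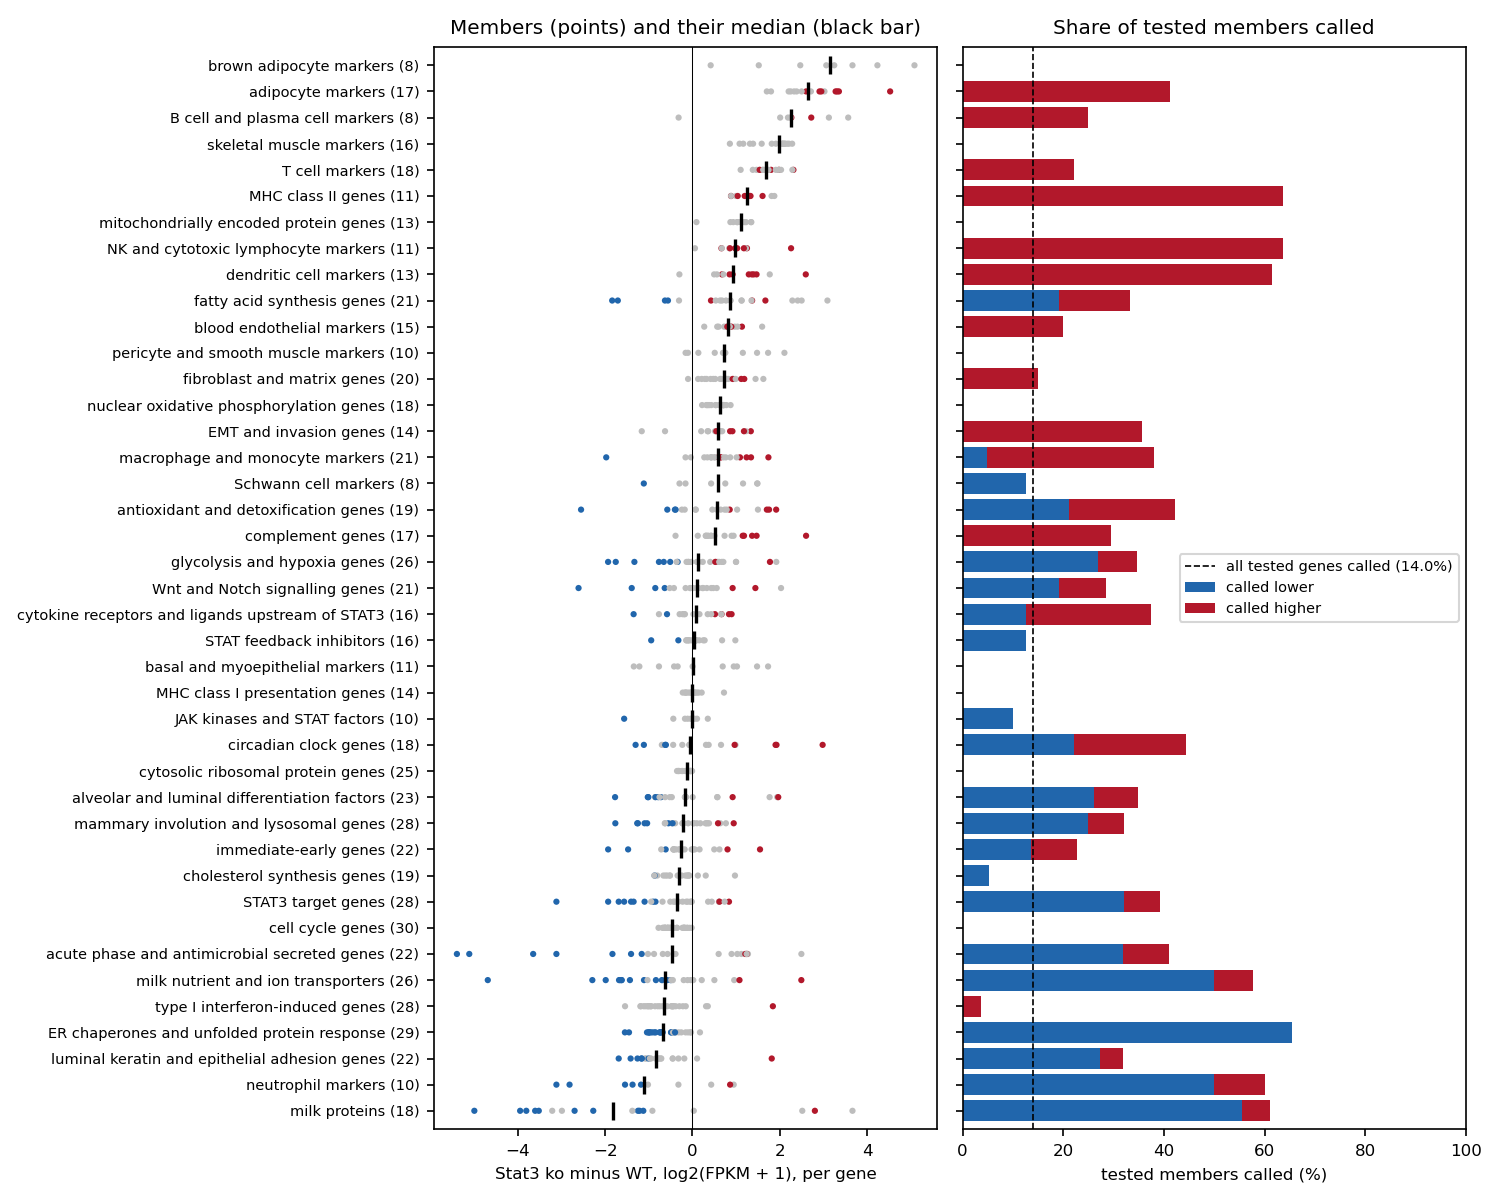
Left, the Stat3 ko minus WT difference of each tested member of a gene list (points; called genes in colour) on the log2(FPKM + 1) scale, with the list's median as a black bar and the number of tested members in parentheses. Right, the share of tested members called lower (blue) or higher (red), with the 14.0% of all tested genes as a dashed line; ER, milk protein and transporter lists lie on the lower side and class II, NK and dendritic cell lists on the higher side.

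In several other lists most members were not called. All 30 cell cycle genes had a negative difference, with a median of -0.48, but limma, edgeR and DESeq2 each called 0 and 3 were at an unadjusted p under 0.05. Plk1, a mitotic kinase, was at 24.99, 16.7, 18.5 and 31.3 FPKM in WT and 4.56, 11.98, 24.1 and 17.5 FPKM in Stat3 ko (-0.78 ± 0.38, adjusted p = 0.17), with the low value in Stat3 ko 1. Among 28 type I interferon-induced genes limma called 1 higher and 0 lower, with a median of -0.66, 5 at an unadjusted p under 0.05, and 1 and 2 called by edgeR and DESeq2; Oas2, which senses double-stranded RNA, was at 67.1 to 99.8 FPKM in WT and 6.89, 36.1, 41.5 and 65.0 FPKM in Stat3 ko (-1.54 ± 0.53, adjusted p = 0.072). Of 25 cytosolic ribosomal protein genes limma and edgeR called 0 and DESeq2 1, with 2 at an unadjusted p under 0.05. EMT and invasion genes were called higher in 5 of 14, a share of 35.7% against 5.61% of all tested genes, and limma called 0 without Stat3 ko 1 and Stat3 ko 2 (8 were at an unadjusted p under 0.05 in the full fit, and edgeR called 5 and DESeq2 7). Among these 5, including Vim, which encodes the mesenchymal filament vimentin (1.34 ± 0.31, adjusted p = 0.02), no member was called in all 8 fits with a library left out; Vim lost its call without WT 1 (adjusted p = 0.06) and WT 4 (0.063). Fibroblast and matrix genes were called higher in 3 of 20 and lower in 0, and higher in 1 without Stat3 ko 1 and Stat3 ko 2. Their called share of 15% was near the 14.0% of all tested genes, and their median difference was 0.71.

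Genes near Stat3 were examined because a targeted locus can carry linked differences. Within 5 Mb of the Stat3 start 171 other genes were tested, of which 7 were called higher and 17 lower (14.0%), the same share as over all genes, and their median difference was -0.06. The called shares were 11.3% of 53 genes within 1 Mb and 15.7% of 508 within 20 Mb, and over the 20 chromosomes the share ran from 10.1% to 16.3%. Nearest among the stable falls was Psmc3ip, a recombination cofactor that also binds nuclear receptors, which fell from 6.13, 5.88, 6.37 and 6.70 FPKM to 1.45, 2.31, 3.04 and 2.88 FPKM (-1.11 ± 0.17, adjusted p = 0.0027). Cdk5rap3, a component of the protein ufmylation system, fell from between 20.1 and 22.1 FPKM in WT to between 14.6 and 16.2 FPKM (-0.42 ± 0.07, adjusted p = 0.0059), and Pgap3, which remodels glycolipid anchors, from between 6.10 and 6.96 FPKM to between 3.23 and 4.71 FPKM (-0.63 ± 0.11, adjusted p = 0.0054). In each of these 3 genes the groups did not overlap. Krt23, whose values are given with the luminal genes, lies at -1407 kb from the Stat3 start. It was the only rise within 5 Mb called in all 8 fits with a library left out.

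The authors' deposited table of the same comparison holds 6155 genes, all with an unadjusted p up to 0.05, and 3547 of them have an adjusted p under 0.05 there, 2314 higher and 1233 lower. Of the 1911 genes called here, 1892 are listed in the authors' deposited table, all 1892 in the same direction. An adjusted p under 0.05 in the authors' deposited table was shared by 1727, which is 90.4% of the genes called here and 48.7% of those called there. Both sets were made from the same libraries, so this compares tests and not samples.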

How the data were processed

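RNA from hyperplastic mammary glands was sequenced with an NEBNext Ultra II library kit, per the labels' protocols. Per the submitters' processing notes, the tools were limma, edgeR, HTSeq, STAR and Trimmomatic, with mm10 and GRCm38 as genome builds; versions, and whether counting used strand, are not given in the sources used here. The authors deposited FPKM per gene for 12 libraries, and comparison tables with raw counts, log2 fold changes and p-values, per the file headers. FPKM times gene length and a total per library, solved from the deposited counts, gave whole reads (within 0.001 of a read). None of the 55832 values that could be compared differed from those deposited counts. The solved total was 0.926 (Stat3 ko 1) to 1.14 (Stat3 ko 3) times the library's summed counts.

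Samples were grouped by the genotype label. Genes with at least 1 FPKM in 4 of 12 libraries were tested on log2(FPKM + 1) with limma 3.58.1 (R 4.3.3, trend, 12 libraries, 3 group means), with p-values adjusted by Benjamini-Hochberg over all 13643 genes. edgeR 4.0.16 and DESeq2 1.42.0 were run on the recovered counts as alternatives, beside other pseudocounts, filters and scalings and libraries left out. The scripts were tested on simulated data. Gene lists were described by counts and medians, with no set test. RefSeq promoters were searched by exact letters. The genes named are Stat3 and Chil1, the 25 largest non-overlapping falls and rises, up to 5 called and 2 uncalled members of each list, the 10 most abundant falls and rises, genes within 5 Mb of Stat3 and those with the smallest adjusted p, with exceptions said where they occur and some left out. The comparison, lists and genes were chosen with earlier results of these data known. The other 4 libraries, labelled MIC Chi3l1 ko, entered only the shared spread and the filter.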

Additional observations from a re-analysis of the deposited data

Results flagged for a closer look

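For each list and each named gene except Socs3, Mmp9, Slpi, Cd36 and Glycam1, the highest and lowest library of a group of 4 were compared with the rest. Dixon's criterion was used, which chance alone passes in about 1 in 20 groups. Among 376 groups 20 values passed, a share near the 1 in 20 that chance alone passes. The values below are therefore descriptions only. In the Stat3 ko group, Stat3 ko 1 was the highest library for Osmr (4.80 FPKM), Zeb2 (6.49 FPKM) and Vim (259 FPKM), and the lowest for Jund (67.6 FPKM), Btnl2 (2.97 FPKM) and the mean level of the STAT3 target list (4.24 on the log2 scale). Stat3 ko 2 was lowest for Tanc2 (2.08 FPKM), a scaffold protein gene near Stat3. Stat3 ko 4 was highest for Xbp1 (139 FPKM).

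In the WT group, WT 2 was the highest library for the immune genes C3 (168 FPKM), Cd74 (2409 FPKM), H2-Aa (92.7 FPKM) and Siglech (1.78 FPKM), for the T cell marker level (2.20) and for the MHC class II level (5). WT 4 was highest for the thermogenic gene Ucp1 (2.30 FPKM), for the cholesterol synthesis gene Mvd (21.8 FPKM) and for the level of alveolar and luminal differentiation factors (3.90), and lowest for the clock gene level (2.45). WT 1 was highest for the transporter level (4.05), and WT 3 was lowest for lactoferrin, Ltf (818 FPKM).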

How the results depend on the processing

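The fall of Stat3 was called in every alternative run, at -1.46 to -1.78. The 1911 calls became 1149 with no filter, 506 in the fit of 8 libraries alone, 3633 with DESeq2, 911 without Stat3 ko 1 and Stat3 ko 2 together, and 571 to 3252 with each library left out in turn. The 766 rises became 446 with no filter, 396 at a mean of at least 5 FPKM, 148 with 8 libraries, 1279 with edgeR, 2092 with DESeq2, 369 without both libraries and 159 to 1473 with each left out. The 1145 falls became 703 with no filter, 358 with 8 libraries, 542 without both and 412 to 1779 with each left out. The 24 called genes near Stat3 became 11 with no filter, 8 with 8 libraries, 41 with DESeq2, 9 to 34 with each library left out, 6 within 1 Mb and 80 within 20 Mb. The motif share went from 8.42% to 1.15% with the narrower motif. The cause of these shifts was not tested, apart from fewer samples or other windows and letters by construction. Socs3, Mmp9, Slpi, Cd36 and Glycam1 are left out of the counts of named genes that follow. Of the other named genes, Stat2 (0.074) and Creb3l1 (0.067) turned positive without both Stat3 ko libraries, from uncalled negative values. Of 2517 values of the other named genes under alternatives, these 2 included, 2257 stayed on their side of the threshold in the same direction, 207 lost the call and 51 gained one. The sign of the median was kept by 42 of 47 lists under 4 other scalings and tests, and not by the JAK and STAT, feedback inhibitor, MHC class I, Wnt and Notch, and basal lists. No paired analysis was possible because the labels give the groups no shared replicate numbers. The 4 libraries per group and the spread in Stat3 ko limit the precision of small differences.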

Other observations

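Tissue next to the gland was unevenly present in the libraries. The mean log2(FPKM + 1) of 16 skeletal muscle markers was 0.87, 6.27, 4.99 and 1.52 in WT and 3.54, 8.11, 1.69 and 7.34 in Stat3 ko, with no order by genotype, and limma, edgeR and DESeq2 each called 0 of them, with 0 at an unadjusted p under 0.05. Acta1, the skeletal muscle actin, ran from 5.03 FPKM in WT 1 to 4759 FPKM in Stat3 ko 2. The brown fat gene Ucp1, which uncouples mitochondrial respiration, was at 0.103, 0, 0.193 and 2.30 FPKM in WT and at 176, 357, 74.3 and 0.194 FPKM in Stat3 ko, so Stat3 ko 4 was within the WT range while the other 3 were far above it.

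Blood endothelial markers were called higher in 3 of 15 tested genes by limma and in 0 without Stat3 ko 1 and Stat3 ko 2 (11 were at an unadjusted p under 0.05 in the full fit, and edgeR called 8 and DESeq2 12), and their mean level was 2.12, 2.36, 2.58 and 2.14 in WT and 4.10, 3.18, 2.74 and 2.56 in Stat3 ko. Stat3 ko 4 lay just under WT 3, and the level was highest in Stat3 ko 1, where the adipocyte level was also highest. Nuclear genes of oxidative phosphorylation had a median difference of 0.62 over 18 genes; limma and edgeR called 0, with 10 at an unadjusted p under 0.05, and DESeq2 called 9. Their mean level was 7.25 and 6.83 in Stat3 ko 1 and Stat3 ko 2, against 6.20 and 6.26 in Stat3 ko 3 and Stat3 ko 4 and 5.99 to 6.15 in WT.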
